A study of Xenopus laevis with 2 samples.

Results

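The 8 genes described here belong to the Spemann organiser, the dorsal signalling centre of the amphibian gastrula. They were chosen by name, as every copy of gsc, sia1, sia2, chrd and cer1 among the 44456 genes of a RefSeq table of the Xenopus laevis assembly v10.1. The copies found were gsc.L, gsc.S, sia1.L, sia2.S, chrd.1.L, chrd.2.L, chrd.1.S and cer1.S, where L and S name the long and short subgenome of this allotetraploid frog and a number marks a further copy. Open DNA was mapped by CATaDa (Chromatin Accessibility profiling using Targeted DamID), in which a free bacterial Dam methylase marks GATC motifs wherever it can reach the DNA. The series holds 1 group, Dam-only-256c, with 2 replicates of 500 whole wild-type embryos each. The injected material was 2.3 ng per embryo of pRN3P_AID-Dam-only, given at the 1-cell stage, and collection followed at 4.5 hpf with 256 cells, before zygotic genome activation (ZGA). Dorsal cells were not separated from the other cells, so each value is an average over all cells of 500 embryos. Control libraries from embryos without Dam were not analysed here.

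In Xenopus the organiser forms on the side of the embryo where maternal β-catenin accumulates, and it instructs neighbouring cells to become neural tissue and dorsal mesoderm. Its genes are transcribed from the zygotic genome and fall into nuclear regulators and secreted inhibitors. Among the regulators, sia1 (siamois) and sia2 (twin) encode homeodomain activators that are direct targets of β-catenin and Tcf, and gsc (goosecoid) encodes a homeodomain repressor that they switch on. Among the secreted proteins, chrd (chordin) binds BMP ligands and keeps them from their receptors, and cer1 (cerberus) blocks Nodal, BMP and Wnt ligands and promotes head formation.

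Each replicate was deposited as a list of broad peaks, 325974 in replicate 1 and 277551 in replicate 2. A locus is taken here as the gene with 20 kb on each side, and a peak belonged to it with at least 1 bp of overlap. Fold enrichment is the authors' ratio, read pileup over the background that the peak caller estimated, and is an average over the peak. Its median over all peaks was 4.34 in replicate 1 and 4.50 in replicate 2. A peak was recurring when it shared at least 1 bp with a peak of the other replicate. With 1 group of 2 replicates there is no contrast to test, so values are given per replicate or as mean ± SD (n = 2) and carry no p-value. Read numbers are unknown, so a missing peak does not show closed DNA. A stretch that lacks GATC motifs cannot be marked either, and sequence was not analysed here.

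Replicate 1 had 39 peaks in the 8 loci and replicate 2 had 32. Of these, 9 (23.1%) and 7 (21.9%) lay in the organiser genes, with at least 1 bp of overlap. These genes make up 16.2% of the bp of the loci. The same share was not computed over all protein-coding loci, and chrd.2.L alone held 4 and 3 of these peaks. In each list 28 of the locus peaks were recurring, which is 71.8% of those in replicate 1 and 87.5% in replicate 2. Over all peaks on assembled chromosomes these shares were 66.6% and 77.8%. Of the 28 recurring peaks, 6 lay in an organiser gene, namely 1 each in gsc.L, sia2.S and chrd.1.S and 3 in chrd.2.L.

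**Figure D1:**
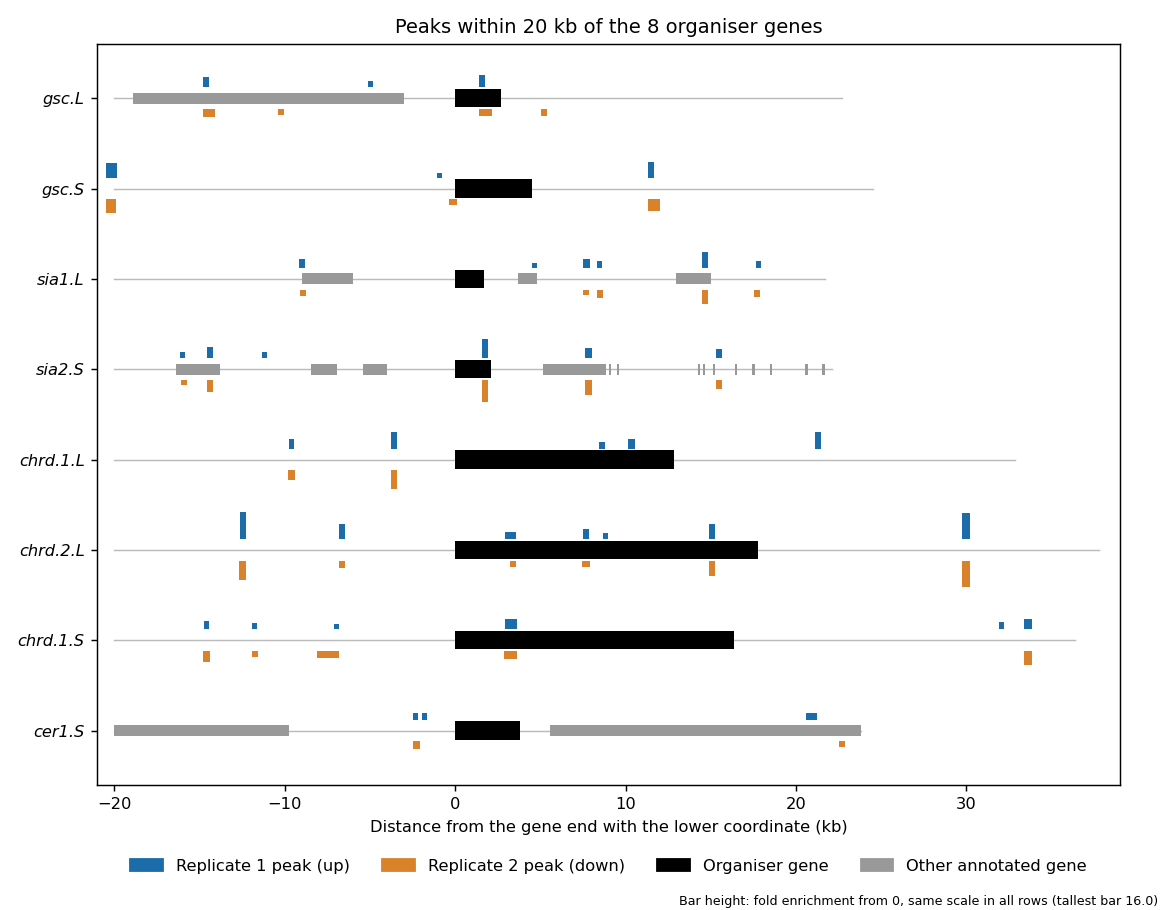
Peaks of both replicates at each organiser gene, drawn by distance from the gene end with the lower coordinate (x axis, kb). Blue bars above the line are replicate 1 and orange bars below it are replicate 2, bar height is fold enrichment (ratio), black boxes are the organiser genes and grey boxes other annotated genes. Bars in the same place above and below a line are the 28 recurring peaks. The black boxes of sia1.L and cer1.S hold no peak of either replicate.

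A peak in the gene in both replicates was found for 4 of 8 organiser genes, gsc.L, sia2.S, chrd.2.L and chrd.1.S. Among 34461 protein-coding genes on assembled chromosomes this share was 74.8%, but gene length differs between these sets, and longer genes offer more room for a peak. The 5 organiser genes of up to 4487 bp, which are gsc.L, gsc.S, sia1.L, sia2.S and cer1.S, held such peaks in 2 cases, and protein-coding genes of the same length or shorter did so in 30%. The 3 chrd copies, of 12866 to 17790 bp, held them in 2 cases, against 80.8% of protein-coding genes in that range of length. These counts are close to the background shares and are no result about the organiser genes.

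The siamois and twin genes lay among small annotated genes and differed in the gene itself. sia2.S (gene ID 373692; 3S, 127552980 to 127555072) carried 1 peak in the gene in each replicate. It had the same coordinates in both, 127554541 to 127554895, with a fold enrichment of 11.3 in replicate 1 and 12.9 in replicate 2. Of all peaks, 96.5% in replicate 1 and 98.2% in replicate 2 had a lower fold enrichment. It ended 177 bp inside the higher-coordinate end of the gene and covered 16.96% of the gene in each replicate. Gene strand was not used here, so that end was not assigned to the start or the end of transcription.

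Of the 8 loci, that of sia2.S had the most recurring peaks with identical coordinates in both lists. Replicate 1 had 6 peaks and replicate 2 had 5, and 4 of the 5 recurring peaks had identical coordinates in both lists. Besides the peak in the gene, these were 127538399 to 127538783 (fold enrichment 6.99 and 7.23), 127560571 to 127561025 (5.87 and 8.79) and 127568256 to 127568611 (5.56 and 5.57). The peak at 127538399 lay in the protein-coding gene LOC108703520 and that at 127560571 in the pseudogene LOC108703522. The peak at 127568256 lay in a row of tRNA and snoRNA genes but overlapped none of them. Of the 14 other annotated genes in this locus, 4 were tRNA genes and 6 were snoRNA genes. No peak was present within 5 kb outside the gene in either replicate.

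At sia1.L (gene ID 378613; 3L, 153185304 to 153186993), the gene held no peak in either replicate. A stretch of 13276 bp, from 153176532 to 153189807, contained the whole gene and was free of peaks in both lists. It was shorter than the median longest stretch without peaks of all protein-coding loci, 15932 bp. Loci of longer genes are longer and leave more room for such a stretch, and loci were not matched for length. The locus as a whole was not poor in peaks, with 6 in replicate 1 and 5 in replicate 2, of which 5 were recurring in each. Most lay on the higher-coordinate side, where 8.27% and 7.05% of the flank was in peaks, against 1.68% and 1.75% on the lower side. The highest was again identical in both lists, from 153199797 to 153200150 in the protein-coding gene LOC108710652, with a fold enrichment of 9.65 and 8.27. The recurring peak nearest to the gene started 5831 bp from it in replicate 1 and 5792 bp in replicate 2, with a fold enrichment of 5.44 and 2.92.

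The goosecoid copies each had few peaks, and they differed in where these lay. gsc.L (gene ID 397752; 8L, 79337943 to 79340657) had 1 peak in the gene in each replicate. It spanned 345 bp in replicate 1 (79339336 to 79339680) with a fold enrichment of 7.36, and 795 bp in replicate 2 (79339332 to 79340126) with a fold enrichment of 4.35. The peak therefore covered 12.7% of the gene in replicate 1 and 29.3% in replicate 2. Of all peaks, 86.7% in replicate 1 had a lower fold enrichment, and only 45.9% in replicate 2. The other recurring peak of this locus lay in the lncRNA gene LOC121396843, 14440 bp from gsc.L in replicate 1 and 14090 bp in replicate 2, with a fold enrichment of 6.27 and 4.60. No recurring peak lay on the higher-coordinate side, and 1 peak of 349 bp was listed there in replicate 2 alone.

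In gsc.S (gene ID 397748; 8S, 20057701 to 20062187), no peak in the gene was recurring. Replicate 2 had a peak across the lower-coordinate end, from 20057346 to 20057787, with a fold enrichment of 3.37. Replicate 1 had none in the gene and 1 peak of 310 bp that ended 774 bp outside the same end, with a fold enrichment of 2.53, the lowest of the 39 in this list. These do not overlap and were counted as different peaks. Both recurring peaks lay farther off. One began 6852 bp beyond the gene in both lists, at 20069039, with a fold enrichment of 9.15 and 7.15. The other crossed the outer edge of the locus, 19834 bp from the gene in replicate 1 and 19875 bp in replicate 2, with a fold enrichment of 8.62 and 8.06.

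In both replicates the highest peak of the 8 loci lay beside a chordin copy, chrd.2.L. At chrd.2.L (gene ID 108716188; 5L, 104547261 to 104565050), the 7 peaks of replicate 1 and the 6 of replicate 2 included 6 recurring peaks. A peak 11951 bp beyond the higher-coordinate end spanned 104577001 to 104577456 in replicate 1 and 104577000 to 104577482 in replicate 2. Its fold enrichment of 15.2 and 15.8 exceeded that of 98.97% and 99.4% of all peaks. On the other side, a peak 12298 bp from the gene in replicate 1 and 12259 bp in replicate 2 had 15.96 and 11.1, above 99.2% and 96.5% of all peaks. Within the gene, 3 peaks were recurring, and the strongest had the same coordinates in both lists, 104562135 to 104562485, with a fold enrichment of 8.90 and 8.95. No peak lay within 5 kb outside either gene end in either replicate.

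chrd.1.L (gene ID 108716939; 5L, 104493369 to 104506234) lies on the same chromosome as chrd.2.L and differed most between replicates in peak number. Replicate 1 had 5 peaks and replicate 2 had 2. Both peaks of replicate 2 were recurring, and 3 peaks of replicate 1 had no counterpart. Those 3 included both of its peaks in the gene (fold enrichment 3.75 and 5.94) and a peak with a fold enrichment of 9.82 that began 8246 bp beyond the higher-coordinate end. The strongest recurring peak, from 104489599 to 104489972, was identical in both lists and ended 3397 bp from the lower-coordinate end. Its fold enrichment was 10.09 in replicate 1 and 11.05 in replicate 2, above 94.9% and 96.4% of all peaks.

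chrd.1.S (gene ID 398045; 5S, 86328071 to 86344435) held 1 recurring peak in the gene, which ended at 86331672 in both lists and spanned 690 bp in replicate 1 and 724 bp in replicate 2. Its fold enrichment was 6.03 and 4.98. The next 28284 bp, from 86331673 to 86359956, were free of peaks in both lists and included the rest of the gene. Of all protein-coding loci measured in the same way, 90.8% had a shorter longest stretch without peaks, but loci were not matched for length. By the geometric mean over both replicates, the highest recurring peak lay 17010 bp beyond the gene, from 86361445 to 86361897 in both lists, and had a fold enrichment of 5.90 and 8.51. This locus also had the widest peak of the 8 loci, 1280 bp in replicate 2 on the lower-coordinate side, where replicate 1 had a peak of 310 bp.

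At cer1.S (gene ID 398060; 1S, 113568321 to 113572107), the gene held no peak in either replicate, and no locus of the 8 had fewer peaks, with 3 in replicate 1 and 2 in replicate 2. The only recurring peak started at 113565833 in both lists and ended 2179 bp from the gene in replicate 1 and 2084 bp in replicate 2. Its fold enrichment of 3.82 and 4.60 was close to the medians of all peaks. From 113566689 to 113588919, a stretch of 22231 bp with the whole gene and part of its neighbour zdhhc21.S held no peak in either list. In 78.8% of all protein-coding loci, which were not matched for length, the longest such stretch was shorter. In the part of zdhhc21.S that lies in the locus each replicate had 1 peak, and the 2 did not overlap.

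Peak coverage, the part of the bp of a locus that lay in peaks, put the loci in an order that replicates resolved only in part. It was highest at chrd.1.S, with 4.97% ± 1.05, followed by sia2.S with 4.84% ± 0.455, sia1.L with 4.49% ± 0.392 and chrd.2.L with 4.48% ± 0.466. It was 3.78% ± 1.98 at gsc.L, where replicate 1 gave 2.37% and replicate 2 gave 5.18%. The lowest values were 2.34% ± 0.658 at gsc.S, 2.33% ± 1.26 at chrd.1.L and 2.30% ± 0.817 at cer1.S. Neighbours in this order overlapped in every case. In 12 of 28 pairs of loci the replicate ranges did not overlap, and these were the first 4 loci set against the last 3.

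**Figure D2:**
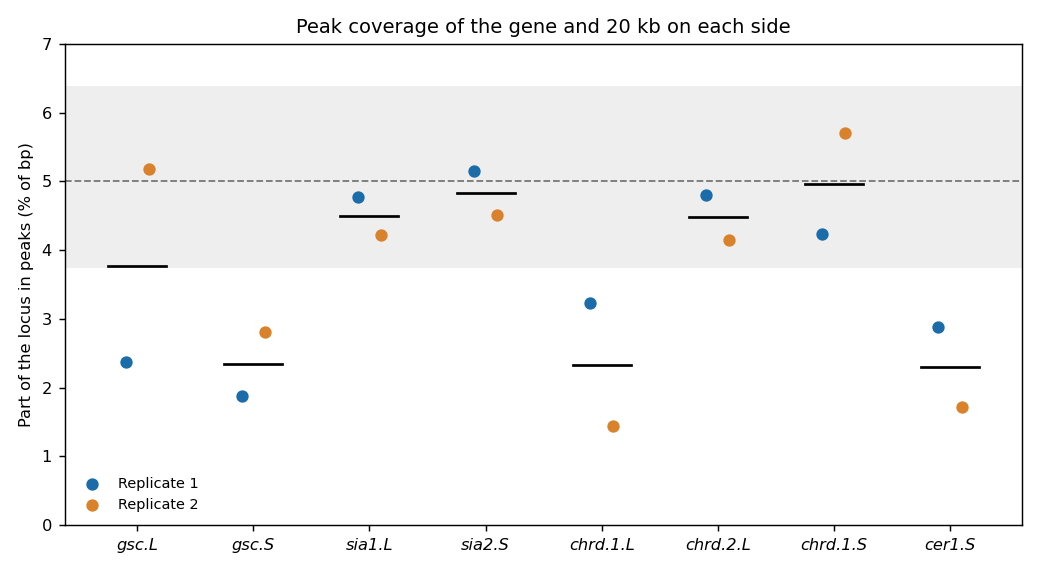
Part of each organiser locus in peaks (y axis, % of bp of the gene and 20 kb on each side). Blue and orange points are replicates 1 and 2, black bars their mean, the dashed line the median of 34461 protein-coding genes (5.01%) and the grey band their middle 50%. All 8 bars lie below the dashed line, and the points of gsc.L lie farthest apart.

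Each of the 8 organiser loci had a mean coverage below the median of all protein-coding genes. The median over the 8 loci was 4.13% and that over 34461 protein-coding loci was 5.01%, with a middle 50% of 3.76% to 6.37%. In replicate 1 all 8 loci were below the median of that list (5.17%), and in replicate 2 it was 6 of 8, with gsc.L and chrd.1.S above it (4.80%). The rank among all protein-coding loci went from 5.91% of genes lower at cer1.S, 6.15% at chrd.1.L and 6.23% at gsc.S to 49.1% at chrd.1.S. In peaks per 10 kb, the median was 0.898 over the 8 loci and 1.16 over all protein-coding loci. By this measure not all 8 loci were lower, since sia1.L (1.32) and sia2.S (1.31) lay above 1.16. This describes 8 loci in 2 libraries, and GATC density was not taken into account.

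In these 8 loci the lower coverage was not evenly spread with distance. The 5 kb edge used here was chosen after seeing the data, so the values are a description and were not tested. Within the organiser genes, peaks took up 6.06% of bp in replicate 1 and 5.03% in replicate 2, against 4.98% and 4.66% in all protein-coding genes. These values pool bp, so the long chrd copies weigh most. In both replicates gsc.L, sia2.S and chrd.2.L lay above the shares of all protein-coding genes. gsc.S, sia1.L, chrd.1.S and cer1.S lay below in both, and chrd.1.L lay above in replicate 1 alone. In the 5 kb outside each gene end the organiser genes had 2.24% and 1.85%, against 5.22% and 4.93%. These values rest on few peaks, at most 2 per gene in a replicate. There cer1.S lay above all protein-coding genes in replicate 1 (6.2%) and below them in replicate 2 (4.05%). Each other organiser gene lay below in both. Between 5 and 10 kb the values were 4.04% and 5.26%, against 5.39% and 5.06%, and between 10 and 20 kb they were 3.35% and 3.40%, against 5.36% and 5.03%. No peak within 5 kb outside the gene in either replicate was found at 3 of 8 organiser genes, sia2.S, chrd.2.L and chrd.1.S, and at 17.3% of all protein-coding genes.

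**Figure D3:**
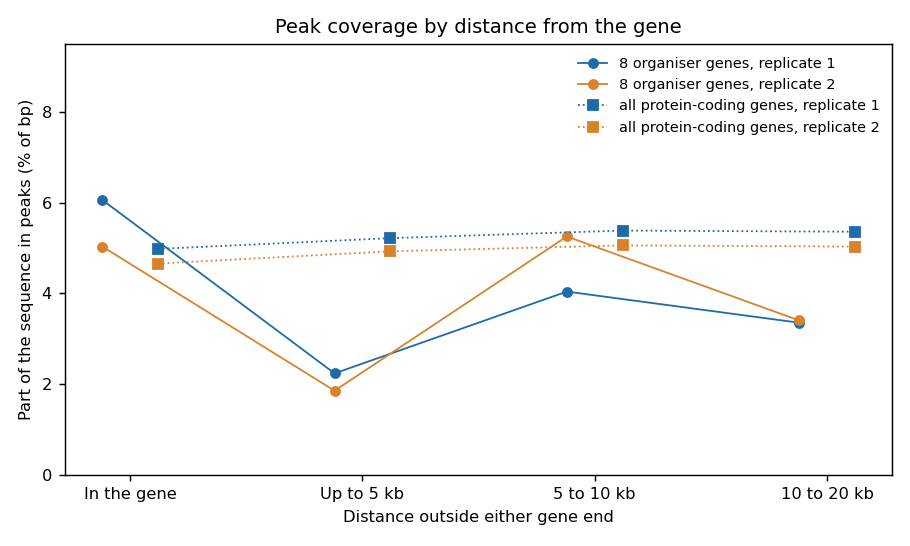
Part of the sequence in peaks (y axis, % of bp) in the gene and in 3 bands of distance outside both gene ends (x axis). Circles with solid lines pool the 8 organiser genes, squares with dotted lines pool 34461 protein-coding genes, and colours mark the replicates. The circles drop to 2.24% and 1.85% in the first 5 kb, where the squares stay at 5.22% and 4.93%. The 5 kb edge was chosen after seeing the data.

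Peaks close to gene ends were examined because promoters lie at one of them. A peak within 1 kb of either end in both replicates was found at 3 of 8 organiser genes, gsc.L, gsc.S and sia2.S, and at 35.7% of all protein-coding genes. The peaks of gsc.S there were not the same in both lists, and its case rests on a peak of 310 bp in replicate 1. From the nearer gene end to the nearest peak, the organiser genes had a median distance of 1980 bp (replicate 1) and 2325 bp (replicate 2), against 1083 bp and 1318 bp for all protein-coding genes. The longest was that of sia1.L in replicate 2, with 5792 bp, where replicate 1 had 2815 bp. At sia2.S it was 177 bp in both.

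L and S copies could be compared for gsc and chrd.1. Copies were paired by symbol alone, and the table lists chrd.L as an older name of chrd.1.S. Coverage was 2.37% and 5.18% at gsc.L in replicates 1 and 2, against 1.87% and 2.81% at gsc.S. L exceeded S by 0.499 and 2.37 percentage points, a mean of 1.44 ± 1.32, which is smaller than the 2.80 points by which the replicates of gsc.L differed. It was 0.307 points with 10 kb on each side and 0.170 points with the upper 50% of peaks, where the sign differed between replicates (0.470 and -0.131). Part of the excess lay in the gene itself, of which 12.7% and 29.3% was in peaks in gsc.L, against 0% and 1.94% in gsc.S. With 50 kb on each side the sign turned, and L minus S was -0.477 points. Median fold enrichment was lower at gsc.L, with 6.27 and 4.17 over 3 and 4 peaks. At gsc.S it was 8.62 and 7.15, over 3 peaks in each replicate.

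For chrd.1, coverage was 3.22% and 1.44% at chrd.1.L in replicates 1 and 2, against 4.23% and 5.71% at chrd.1.S. L minus S was -1.005 and -4.27 points, a mean of -2.64 ± 2.31. L minus S changed by 3.26 points between replicates, more than its mean. The sign differed between replicates in some other settings. With 10 kb on each side L minus S was 2.43 and -3.20 points, a mean of -0.380. With 50 kb it was 0.573 and -1.31, a mean of -0.367, but that window of chrd.1.L reaches into chrd.2.L. With the upper 50% of peaks it was 0.0590 and -1.38, a mean of -0.659. With chrd.2.L in place of chrd.1.L, a pairing added after seeing the data, L minus S was 0.578 and -1.56 points, a mean of -0.491. With 20 kb on each side the replicate ranges of chrd.1.L and chrd.1.S did not overlap. Replicates of the same copy differed by 1.78 points for chrd.1.L and 1.48 points for chrd.1.S. Because the sign was not kept in both replicates under the other settings named here, a difference in coverage is not shown to hold across settings. The wide replicate 2 peak of 1280 bp on the lower-coordinate side of chrd.1.S adds to the coverage of chrd.1.S in that replicate. Median fold enrichment ran the other way but rests on few peaks. It was 5.94 and 8.44 at chrd.1.L, over 5 and 2 peaks. At chrd.1.S it was 4.57 and 4.98, over 6 and 5 peaks. No peak of the L locus was set against a peak of the S locus, since their sequences were not aligned. For the other 4 genes no homeologous copy was analysed here.

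The 28 recurring peaks spanned a wide range of fold enrichment and were of similar height in both replicates in most cases. In 23 of 28 the values of the replicates were within 1.5 times of each other, and 14 were higher in replicate 1. In both lists at once, 16 of 28 reached the median of all peaks. These shares were not computed over all recurring peaks and are no result about the organiser loci. Over all peaks of the 8 loci, the median fold enrichment was 5.47 in replicate 1 and 4.64 in replicate 2. Recurring peaks of the 8 loci had medians of 5.96 and 5.27, and the 11 and 4 peaks found in 1 list had 3.81 and 3.58. This split was not computed over all peaks either. An identical start or end in both lists was seen for 13 of 28 recurring peaks (46.4%), against 43.8% and 43.9% over all recurring peaks of replicates 1 and 2. Both edges were identical in 8 of the 28 (28.6%), against 12.1% and 12.2% over all recurring peaks, and 4 of these 8 lay at sia2.S.

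**Figure D4:**
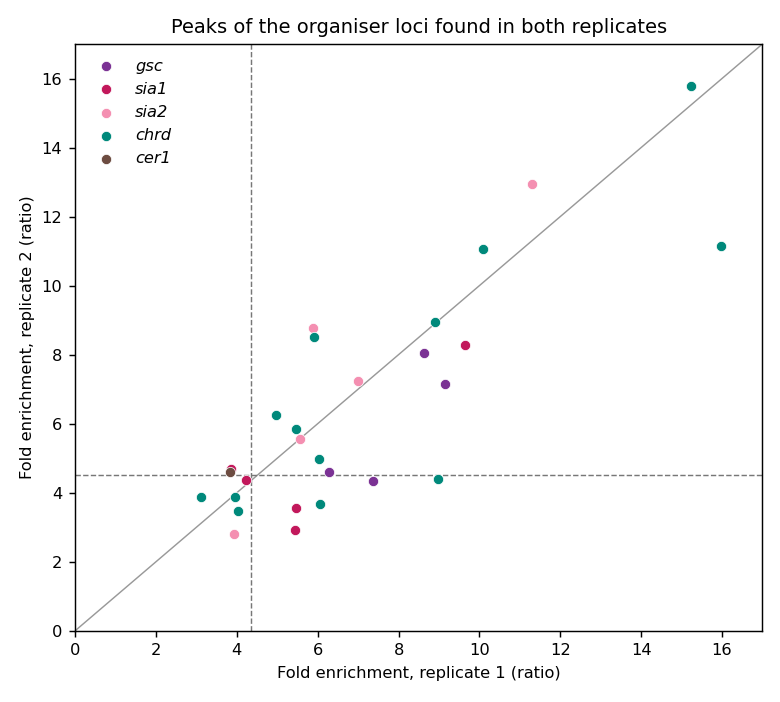
Fold enrichment (ratio) of the 28 recurring peaks in replicate 1 (x axis) and replicate 2 (y axis), coloured by gene name, with copies pooled. The grey line marks equal values and dashed lines the medians of all peaks, 4.34 and 4.50. The points at the upper right are a chrd.2.L peak (15.2 and 15.8), a second chrd.2.L peak (15.96 and 11.1) and the peak in sia2.S (11.3 and 12.9).

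A wider list of organiser and early dorsoventral genes was set beside these 8. It named 18 genes, of which 15 were matched to 30 copies, and noto, pkdcc1 and vent2 were not matched. A peak in the gene in both replicates was present in 15 of 30 copies (50%). Among all protein-coding genes, which were not matched for length, it was 74.8%. Of the 15 copies no longer than 4487 bp it was 6 (40%), against 30%. Their coverage, with a median of 5.28%, lay above the median of all protein-coding genes (5.01%) in 17 of 30 copies.

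Copies are named in order of the geometric mean, over replicates, of the highest fold enrichment in the gene. The first was not.S, a homeobox gene of the notochord, with 8.82 in replicate 1 and 11.8 in replicate 2. Next came foxa4.L, a forkhead gene of the dorsal midline, with 7.87 and 7.20. lhx1.S, a LIM homeobox gene of the organiser, had 5.10 and 7.65, and lefty.S, which encodes a secreted Nodal inhibitor, had 6.57 and 5.92. The Wnt inhibitor gene dkk1.S had 4.07 and 8.95, and no peak was listed in dkk1.L. shisa2.L, which encodes an inhibitor of Wnt and FGF receptor transport (5.84 and 5.98), fst.S, which encodes the activin and BMP inhibitor follistatin (5.14 and 6.17), and the head homeobox gene otx2.L (6.53 and 4.83) followed. In dkk1.L and hhex.S, both longer than 4487 bp, no peak in the gene was found in either replicate. The same held for mix1.L, mix1.S, nodal3.1.L, nodal3.2.L, nog.L, nog.S and szl.L. That is 9 of 30 copies (30%), against 15.4% of all protein-coding genes, which were not matched for length. Among copies of up to 4487 bp this was 7 of 15 (46.7%), and among the 5 short organiser genes above it was 2, sia1.L and cer1.S, against 54.6% of protein-coding genes of that length. These copies were singled out after their values had been seen.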

How the data were processed

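After DpnI and DpnII digestion and PCR, the authors aligned paired-end reads to assembly v10.1 with Bowtie2 within the damidseq pipeline. The authors called broad peaks with MACS3 3.0.1 in each replicate alone, and neither a control library nor cutoffs are given in the sources used here. The deposited fold enrichment is a ratio, and the deposited -log10 p and -log10 q are averages over a peak. The last served here only as a filter. How reads that match several gene copies were placed is not given in the sources used here. The lowest deposited -log10 q was 1.01 and 1.00. Peak lists carry no read numbers, so depth is unknown and counting error could not be computed.

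Coordinates count from 1. Genes were matched by symbol without the L or S suffix and copy number. Covered length, peak number and recurrence were computed with Python 3.11.15 and numpy 2.4.6, and tested on simulated data, where 0 of 500 windows were wrong. Gene ends stood in for promoters, since strand was not used. The members, gene lists and alternatives were chosen with earlier results of these data known. Every copy of the 5 gene names is named. Peaks described are those in the gene, the recurring peaks nearest to it or highest, and others chosen after their values were seen. From the wider list at most 8 copies are named by fold enrichment. Alternatives were the upper 50% of peaks, a fold enrichment from 3 upwards, a -log10 q from 2 upwards, 10 kb or 50 kb on each side, peak midpoints, overlap of 50% of the shorter peak, merging within 500 bp and omission of each replicate. The 5 kb window, the pairing of chrd.2.L with chrd.1.S and the length range of the chrd copies were chosen after seeing the data.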

Additional observations from a re-analysis of the deposited data

How the results depend on the processing

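Of 58 recomputed values of the main results that used both replicates, 44 stayed within the spread of the replicates, or within 1.5 times for counts, 13 moved further and 1 changed sign. Keeping only the upper 50% of each list gave 20.5 peaks per replicate in the 8 loci instead of 35.5, a pooled coverage of 2.14% instead of 3.72%, a median distance from gene end to peak of 2938 bp instead of 2152 bp, a median fold enrichment of 7.31 instead of 5.06 and 1 gene instead of 3 with a peak within 1 kb of an end. Lists with fewer peaks give lower counts and coverage by construction. Windows of 10 kb and 50 kb held 21 and 81.5 peaks and had a pooled coverage of 3.96% and 4.10%. With 50 kb the windows of chrd.1.L and chrd.2.L overlap. Peaks in the shared stretch were not counted again, but its bp entered the pooled coverage for each of these genes. A -log10 q of at least 2 and a fold enrichment of at least 3 each gave 3.58%. With 5 kb on each side, chosen after seeing the data, pooled coverage was 3.57%, and the median over the 8 loci was 1.85 points below that of all protein-coding genes (a difference of -1.85, with 3.04% and 4.89%), instead of -0.880 points. With 50 kb, L minus S of gsc was -0.477 points instead of 1.44, and the cause was not tested. Pooled coverage moved easily because the replicates differed by little (SD 0.0207). The reverse held for L minus S, with an SD of 1.32 for gsc and 2.31 for chrd.1. A change from 1.44 to 0.170 points for gsc, with the upper 50% of peaks, therefore counted as staying. So did a change from -2.64 to -0.367 points for chrd.1 with 50 kb. The 44 values thus include some with a spread too wide to show a change. For single loci, 61 of 96 recomputed values stayed and 35 moved further.

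Leaving out each replicate in turn gave 32 to 39 peaks, a pooled coverage of 3.70% to 3.73%, 1980 to 2325 bp, a median fold enrichment of 4.64 to 5.47, an L minus S of 0.499 to 2.37 points for gsc and -4.27 to -1.005 points for chrd.1, and -1.44 to -0.622 points against all protein-coding genes. Genes with a peak were 5 of 8 in either replicate alone, genes with a peak near an end 3, and copies of the wider list 17 to 19. No paired analysis was possible because the series holds 1 group.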
